A study of Homo sapiens with 3 samples.

Results

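The genes described here encode 10 components of focal adhesions, PTK2, LPP, PXN, VCL, ZYX, TLN1, BCAR1, PARVA, ILK and ACTN1, and their peaks were chosen by position in the Fra-1 and Fra-2 peak lists. A peak belonged to a gene when its centre lay in the gene body or within 100 kb of a transcription start site (TSS) of the gene. By this rule the 10 genes, of 20098 protein-coding genes on chromosomes 1 to 22 and X, held 42 Fra-1 peaks out of 9998 and 60 Fra-2 peaks out of 13003, and no peak belonged to more than 1 of them. The genes were picked with peaks of these lists already known, so the number of peaks per gene is a description, without a test.

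The lists come from chromatin immunoprecipitation and sequencing (ChIP-seq) in MDA-MB-231, a human cell line established from a breast cancer and labelled triple negative and basal b, grown in medium with 10% serum at 37 °C. Chromatin was precipitated with an antibody to Fra-1 in one group and to Fra-2 in the other, the input DNA had no antibody, and the labels name no other agent or genetic change. The labels mention 2 independent replicates of each. With a single list for each antibody no value has a spread between replicates, and input DNA was not analysed here. The lists hold the start and end of each peak (hg19) without a height or score, and the read depth behind them is unknown.

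Focal adhesions are the protein assemblies through which integrins, the receptors for extracellular matrix, are tied to actin filaments. Talin binds the integrin tail and recruits vinculin, alpha-actinin bundles the filaments, and the LIM proteins zyxin and LPP gather where they are under tension. Focal adhesion kinase, paxillin and p130Cas pass signals on from the assembly, and alpha-parvin and integrin-linked kinase form a further link to actin. Fra-1 and Fra-2 are Fos family proteins that pair with Jun proteins to form AP-1, which binds the element TGACTCA, read as TGAGTCA on the other strand.

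The sequences below show where that element stood in the peaks the results turn on, all from GRCh37, plus strand, 5′ to 3′. Capitals mark each copy of TGACTCA or TGAGTCA. A peak is said to hold an element when it stands within 100 bp of the peak's centre, which can reach past the ends of a narrow peak. The first set holds 1 shared peak in intron 1 of VCL, ACTN1 and BCAR1 each, the part of the BCAR1 promoter peak upstream of its TSS, a peak of PARVA that lies in MICAL2, the 100 bp to each side of the centre of the TLN1 peak that lies in TPM2, and the LPP peaks of introns 2 and 6 whose element lay nearest their centres.
VCL, intron 1, chr10:75759101-75759351: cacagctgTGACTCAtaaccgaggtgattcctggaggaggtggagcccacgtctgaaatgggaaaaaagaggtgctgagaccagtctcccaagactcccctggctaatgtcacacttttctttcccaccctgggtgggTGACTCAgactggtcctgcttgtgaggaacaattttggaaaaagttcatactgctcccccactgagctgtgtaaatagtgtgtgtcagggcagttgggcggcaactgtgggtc
ACTN1, intron 1, chr14:69417851-69418051: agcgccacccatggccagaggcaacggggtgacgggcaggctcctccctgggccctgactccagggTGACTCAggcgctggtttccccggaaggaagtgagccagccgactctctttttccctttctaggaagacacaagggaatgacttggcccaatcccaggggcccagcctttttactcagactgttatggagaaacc
BCAR1, intron 1, chr16:75279101-75279351: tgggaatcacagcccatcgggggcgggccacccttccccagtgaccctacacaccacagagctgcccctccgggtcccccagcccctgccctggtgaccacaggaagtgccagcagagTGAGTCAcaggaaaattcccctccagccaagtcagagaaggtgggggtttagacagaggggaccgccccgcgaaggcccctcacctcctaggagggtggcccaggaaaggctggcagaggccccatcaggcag
BCAR1, promoter, chr16:75301952-75302101: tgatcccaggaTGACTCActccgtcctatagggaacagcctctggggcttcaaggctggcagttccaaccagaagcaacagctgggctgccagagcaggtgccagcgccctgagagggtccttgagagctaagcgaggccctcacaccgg
PARVA, in MICAL2, chr11:12309101-12309251: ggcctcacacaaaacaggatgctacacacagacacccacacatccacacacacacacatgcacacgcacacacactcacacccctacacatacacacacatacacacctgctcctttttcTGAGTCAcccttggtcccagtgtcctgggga
TLN1, in TPM2, chr9:35688751-35688951: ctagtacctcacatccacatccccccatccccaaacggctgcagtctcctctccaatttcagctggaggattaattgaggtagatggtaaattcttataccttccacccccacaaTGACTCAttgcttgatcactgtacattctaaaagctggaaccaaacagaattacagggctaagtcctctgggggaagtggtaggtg
LPP, intron 2, chr3:188004001-188004251: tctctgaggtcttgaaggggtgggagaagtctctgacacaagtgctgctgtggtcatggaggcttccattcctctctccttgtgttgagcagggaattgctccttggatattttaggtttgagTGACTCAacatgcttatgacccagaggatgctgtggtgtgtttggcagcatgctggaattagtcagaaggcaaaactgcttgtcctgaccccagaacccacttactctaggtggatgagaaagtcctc
LPP, intron 6, chr3:188264951-188265151: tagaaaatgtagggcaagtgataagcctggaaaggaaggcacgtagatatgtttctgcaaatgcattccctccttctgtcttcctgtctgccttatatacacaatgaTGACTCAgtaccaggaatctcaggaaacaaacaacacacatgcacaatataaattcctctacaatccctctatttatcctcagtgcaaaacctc

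The second set shows peaks that hold no copy near their centre. The widest LPP peak is printed from 10 bases before its first to 10 bases after its last copy of the element, which stand away from its centre, again in capitals. In the next LPP peak the capitals mark TGAATCA, which differs from the element in its middle base. In the third LPP peak they mark GGAATGC and GGAATGT, the consensus of TEAD factors, and in the ACTN1 peak TGACGTCA, the cyclic AMP response element (CRE), which has an extra base in the middle. The PXN peak holds no copy of the AP-1 element and has no capitals.
LPP, intron 2, widest peak, chr3:188012815-188013069: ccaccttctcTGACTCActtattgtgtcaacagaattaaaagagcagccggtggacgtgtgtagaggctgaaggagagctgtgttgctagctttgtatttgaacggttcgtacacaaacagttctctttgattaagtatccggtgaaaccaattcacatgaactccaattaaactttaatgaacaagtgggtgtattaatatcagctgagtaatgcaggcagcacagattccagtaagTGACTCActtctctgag
LPP, intron 2, TGAATCA, chr3:187990901-187991051: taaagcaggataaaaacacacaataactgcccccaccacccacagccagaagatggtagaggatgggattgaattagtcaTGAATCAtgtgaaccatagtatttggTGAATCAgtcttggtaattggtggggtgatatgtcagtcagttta
LPP, intron 2, TEAD, chr3:188008501-188008651: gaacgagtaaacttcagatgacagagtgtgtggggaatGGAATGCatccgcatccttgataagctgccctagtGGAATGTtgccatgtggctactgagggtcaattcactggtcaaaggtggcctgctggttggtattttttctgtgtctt
ACTN1, upstream, CRE, chr14:69526751-69526901: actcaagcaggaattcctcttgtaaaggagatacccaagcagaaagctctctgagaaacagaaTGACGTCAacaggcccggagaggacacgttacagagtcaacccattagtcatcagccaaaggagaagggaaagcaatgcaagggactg
PXN, intron 1, chr12:120668451-120668651: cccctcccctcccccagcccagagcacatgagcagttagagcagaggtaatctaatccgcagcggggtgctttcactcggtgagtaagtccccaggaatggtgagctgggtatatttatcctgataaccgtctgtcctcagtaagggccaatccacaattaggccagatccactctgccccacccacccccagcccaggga

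Peaks of Fra-1 belonged to 7 of the 10 genes and peaks of Fra-2 to 9. By the same rule, Fra-1 peaks belonged to 45.3% and Fra-2 peaks to 58.6% of all protein-coding genes. LPP had 13 Fra-1 and 15 Fra-2 peaks, PTK2 had 10 and 16, ACTN1 5 and 8, and VCL 5 and 6. PXN had 4 of each, BCAR1 2 and 4, and PARVA 3 of each. TLN1 and ILK had Fra-2 peaks alone, 3 and 1, and ZYX had none in either list. Fra-2 peaks without a Fra-1 peak occurred at 15.9% of all protein-coding genes, and no peak in either list at 38.8%. The median gene of the 10 had 3.5 Fra-1 and 4 Fra-2 peaks, and the median protein-coding gene 0 and 1. The genes thus fall in 3 sorts: 2 with many peaks, 5 with a few of both kinds, and 3 with none or Fra-2 alone.

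LPP and PTK2 together held 23 of the 42 Fra-1 peaks and 31 of the 60 Fra-2 peaks. Both genes are long, with 837 kb and 539 kb of searched sequence, where the median protein-coding gene has 210.7 kb. Among the 188 protein-coding genes whose searched sequence was within 20% of that of LPP, the median was 1 Fra-1 and 2 Fra-2 peaks, and among the 621 within 20% of PTK2 it was 1 and 1. Of all protein-coding genes 11 had more Fra-1 peaks and 15 more Fra-2 peaks than LPP. For PTK2 these numbers were 28 and 10. Per 100 kb of searched sequence LPP had 1.55 Fra-1 and 1.79 Fra-2 peaks and PTK2 1.85 and 2.97. On that scale ACTN1 had 1.66 and 2.66, VCL 1.61 and 1.94, PXN 1.60 and 1.60, and BCAR1 0.864 and 1.73. PARVA had 1.01 and 1.01, TLN1 0 and 1.29, ILK 0 and 0.488, and ZYX 0 and 0. Over all protein-coding genes the median was 0 and 0.433. By peaks per 100 kb, 95.4% (Fra-1) and 91.1% (Fra-2) of all protein-coding genes lay below LPP, and 96.3% and 97.8% below PTK2.

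**Figure D1:**
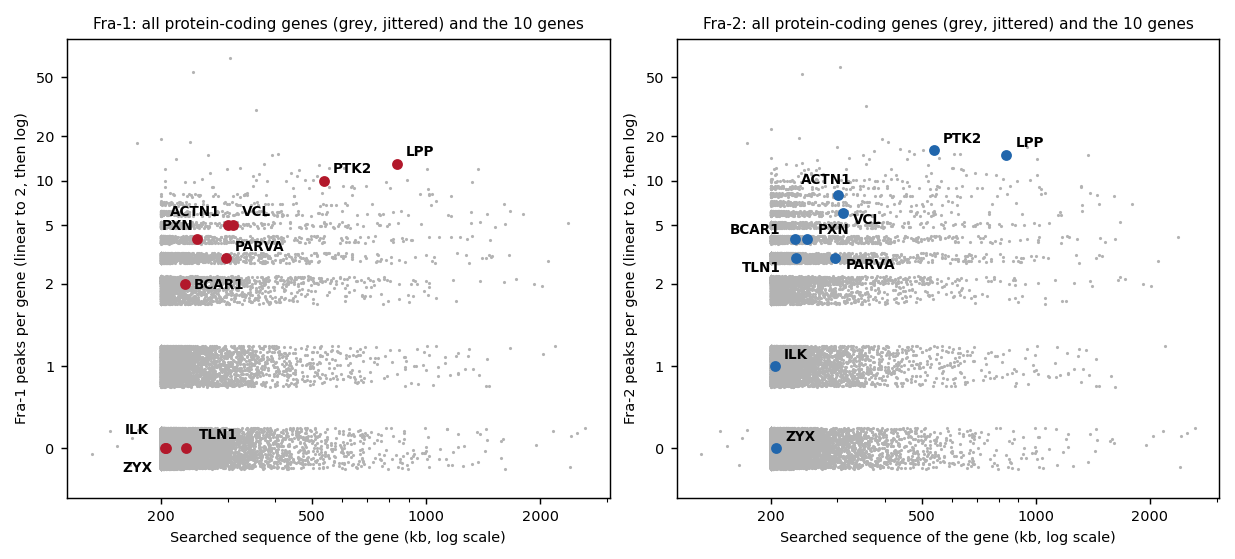
Number of peaks per gene (vertical axis, linear to 2 and logarithmic above) against the searched sequence of the gene in kb (log scale), for Fra-1 (left) and Fra-2 (right). Grey points are all 20098 protein-coding genes, jittered vertically, and coloured points are the 10 focal adhesion genes: LPP with 13 and 15 peaks and PTK2 with 10 and 16 lie near the top, and ZYX lies at 0 in both panels.

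PTK2, which encodes focal adhesion kinase, a tyrosine kinase activated when integrins engage, had its Fra-1 peaks outside the gene. The gene spans chr8:141667999-142012315 on the minus strand, and of its 10 Fra-1 peaks 7 lay upstream, 3 downstream and 0 in the gene body. Those downstream, in both lists, counted only through annotated TSSs other than the 5′ end of the gene. A run of 6 Fra-1 peaks and 7 Fra-2 peaks filled 26 kb, from chr8:142027701 to 142053751, between 15.5 and 41.3 kb upstream of the gene. All 6 Fra-1 peaks of the run were also in the Fra-2 list, and the first, 300 bp wide, had the same start and end in both. Their nearest protein-coding TSS was that of PTK2, and 5 of the 6 held the AP-1 element within 100 bp of their centre. The farthest upstream peak, 74.0 kb away, was nearer to DENND3. Downstream, 3 Fra-1 and 4 Fra-2 peaks had AGO2, which encodes an Argonaute protein of RNA silencing, as their nearest gene, and the widest Fra-1 peak of PTK2, 400 bp at chr8:141655801-141656201, was among them.

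The gene body of PTK2 held 4 peaks, all in the Fra-2 list alone and all narrow. They lay in introns 1, 7, 12 and 25 of the canonical transcript and were 100, 150, 150 and 100 bp wide. Those in introns 1 and 12 held the AP-1 element, at 30 and 10 bp from the centre. Those in introns 7 and 25 held no AP-1 element within 100 bp and 1 TEAD consensus each. Of its 16 Fra-2 peaks, the most of the 10 genes, 7 were absent from the Fra-1 list. The other 9 were shared (56.2%, 95% exact binomial interval 29.9 to 80.2), where 61.6% of the whole Fra-2 list was shared. The interval takes in the share of the list.

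LPP encodes a LIM protein of the zyxin family that moves between adhesions and the nucleus. All peaks that the rule gave it lay inside the gene. LPP spans chr3:187871072-188608460 on the plus strand, and none of the 100 kb upstream of its start held a peak. The rule searched no sequence past its 3′ end, for want of a TSS within reach. A Fra-1 peak at chr3:188618501-188618701, past that end and 142.8 kb from a TSS of LPP, was therefore not counted. Intron 2 contained 9 of the 13 Fra-1 peaks and 8 of the 15 Fra-2 peaks, all within 52.9 kb, from chr3:187962201 to 188015101, all more than 90 kb into the gene. A peak at chr3:188012751-188013151 was the widest of them, 400 bp in the Fra-1 list and 450 bp in the other. Further shared peaks lay in intron 6 (chr3:188264951-188265151, 200 bp in both) and intron 7 (chr3:188345501-188345701, 200 bp in both, and chr3:188349451-188349751, 300 bp in the Fra-1 list but 100 bp in the other). The last exon, in the 3′ UTR, held a shared peak at chr3:188599851-188600001 and a Fra-2 peak at chr3:188599051-188599251, and both were nearer to a TSS of TPRG1.

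The AP-1 element stood within 100 bp of the centre in 4 of the 13 Fra-1 peaks of LPP (30.8%, 95% exact binomial interval 9.09 to 61.4). For Fra-2 it did so in 6 of 15 (40.0%, 16.3 to 67.7). The whole lists had 57.8% (Fra-1) and 68.4% (Fra-2), over chromosomes 1 to 22 and X. The interval for Fra-1 takes in the value of the whole list, and that for Fra-2 ends just below it. Within 200 bp the element stood in 5 of 13 (38.5%) and 8 of 15 (53.3%, 26.6 to 78.7), against 61.0% and 71.1% of the lists, so that the Fra-2 interval then took in the list. Within 100 bp, in intron 2 it stood in 2 of 9 Fra-1 peaks. Of the 9 Fra-1 peaks of LPP without the element, 4 held TGAATCA or TGATTCA, 3 held a TEAD consensus and 3 held none of these, with 1 peak counted under both. The widest peak, printed above, counted among those without, since its copies at chr3:188012825-188012831 and chr3:188013053-188013059 did not lie wholly within 100 bp of the centre in either list. Of the 9 Fra-2 peaks without the element 3 held TGAATCA or TGATTCA, 3 a TEAD consensus and 4 none of these, again with 1 peak under both. The 3 Fra-2 peaks of LPP without a Fra-1 partner, in introns 1 and 3 and the last exon, were 100, 150 and 200 bp wide, and the first 2 held the element.

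VCL encodes vinculin, which binds talin and actin, and its 5 Fra-1 peaks were all in the Fra-2 list too. The gene spans chr10:75754951-75881121 on the plus strand. A peak in intron 1, 1.35 kb from a TSS, had the same start and end in both lists (chr10:75759101-75759351) and 2 copies of the element, 1 of them 16 bp from the centre. Another in intron 2 was 150 bp wide in both (Fra-1 chr10:75815901-75816051). A Fra-2 peak without a Fra-1 partner lay 28.9 kb upstream. The remaining 3 peaks of each list, 86.0 to 95.65 kb upstream for Fra-1, were nearer to PLAU, the urokinase gene, and 1 of them stood at its promoter, 300 bp wide in the Fra-1 list and 350 bp in the other.

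ACTN1 encodes alpha-actinin, the crosslinker of actin filaments, and every Fra-1 peak of the gene was shared and held the AP-1 element. The gene spans chr14:69340845-69446157 on the minus strand. The only peak in the gene body lay in intron 1, 3.69 kb from a TSS, with the same start and end in both lists (chr14:69417851-69418051). Upstream, a peak 350 bp wide in the Fra-1 list and 400 bp in the other was centred in a coding exon of DCAF5 (Fra-1 chr14:69521901-69522251) and held 3 copies of the element. A Fra-2 peak at chr14:69526751-69526901 held the CRE in place of the AP-1 element, and no other peak of the 10 genes held a CRE within 100 bp of its centre, where the lists had it in 0.204% (Fra-1) and 0.398% (Fra-2). Downstream, 2 Fra-1 and 3 Fra-2 peaks were nearer to ZFP36L1, which encodes an RNA-binding protein that speeds mRNA decay.

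TLN1 encodes talin, and its 3 peaks were all in the Fra-2 list alone. None lay in the gene (chr9:35696945-35732192, minus strand). The widest of the 22 Fra-2 peaks of these genes without a Fra-1 partner was among them, 300 bp at chr9:35688701-35689001 in an intron of TPM2, a tropomyosin gene, with the element 18 bp from its centre. The others, 100 and 150 bp wide, were nearer to SIT1 and NPR2, and their copies of the element, 49 and 88 bp from the centre, were not wholly inside the called peaks.

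PXN encodes paxillin, a scaffold phosphorylated by focal adhesion kinase, and its shared peaks stood side by side in intron 1. The gene spans chr12:120648242-120703574 on the minus strand. The Fra-1 peaks at chr12:120668451-120668651 and chr12:120669151-120669601 were 200 and 450 bp wide, and the Fra-2 peaks there 250 and 400 bp. The wider Fra-1 peak was the widest of all 42. Neither Fra-1 peak had the AP-1 element within 100 bp of its centre. A copy at chr12:120669240-120669246 lay inside the wider peak of both lists, beyond 100 bp of the Fra-1 centre and 58 bp from the Fra-2 centre. The other 2 Fra-1 and 2 Fra-2 peaks of PXN were 100 bp wide, each in 1 list alone, and nearer to RPLP0, SIRT4 or MSI1.

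BCAR1 encodes p130Cas, the scaffold on which focal adhesion kinase and SRC act. It was the only one of the 10 genes with a peak within 1 kb of a TSS of its own. That peak, chr16:75301851-75302101, was in the Fra-2 list alone, with the element 10 bp from its centre. It was centred 0.025 kb from the outermost of the 20 annotated TSSs of the gene. The TSS of the canonical transcript was 16.5 kb away. Promoter peaks occurred at 1.81% of protein-coding genes for Fra-1 and 3.55% for Fra-2. A shared peak in intron 1 had the same start and end in both lists (chr16:75279101-75279351) and its element 4 bp from the centre. Another shared peak lay 37.6 kb upstream in an intron of CFDP1, and a Fra-2 peak of 100 bp without a Fra-1 partner lay 21.4 kb upstream. Both Fra-1 and all 4 Fra-2 peaks of BCAR1 held the element, and a BCAR1 TSS was the nearest to each. The gene spans chr16:75262079-75301951 on the minus strand.

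PARVA and ILK encode alpha-parvin and integrin-linked kinase, partners in the complex that ties beta-integrins to actin, and neither had a peak in its gene body. The 3 Fra-1 and 3 Fra-2 peaks of PARVA were the same sites, within 1.15 kb of each other about 90 kb upstream, in an exon and introns of MICAL2 (Fra-1 chr11:12308701-12308801, chr11:12309101-12309251 and chr11:12309401-12309651). MICAL2, an oxidoreductase gene acting on actin, was the nearest gene to all of them. Each held the AP-1 element, and the widest, 250 bp in the Fra-1 list and 400 bp in the other, held 2 copies. ILK had a single Fra-2 peak, chr11:6639301-6639501, 0.638 kb from a TSS of TPP1, a lysosomal peptidase gene, and 9.43 kb from its own nearest TSS.

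ZYX encodes zyxin, the namesake of the family of LPP, and no peak of either list lay in reach of it. The gene spans chr7:143078388-143088204 on the plus strand, and the nearest peak of each list was 571 kb away. Its searched sequence held 43 copies of the AP-1 element, 20.8 per 100 kb, where the genome held 16.1 per 100 kb.

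**Figure D2:**
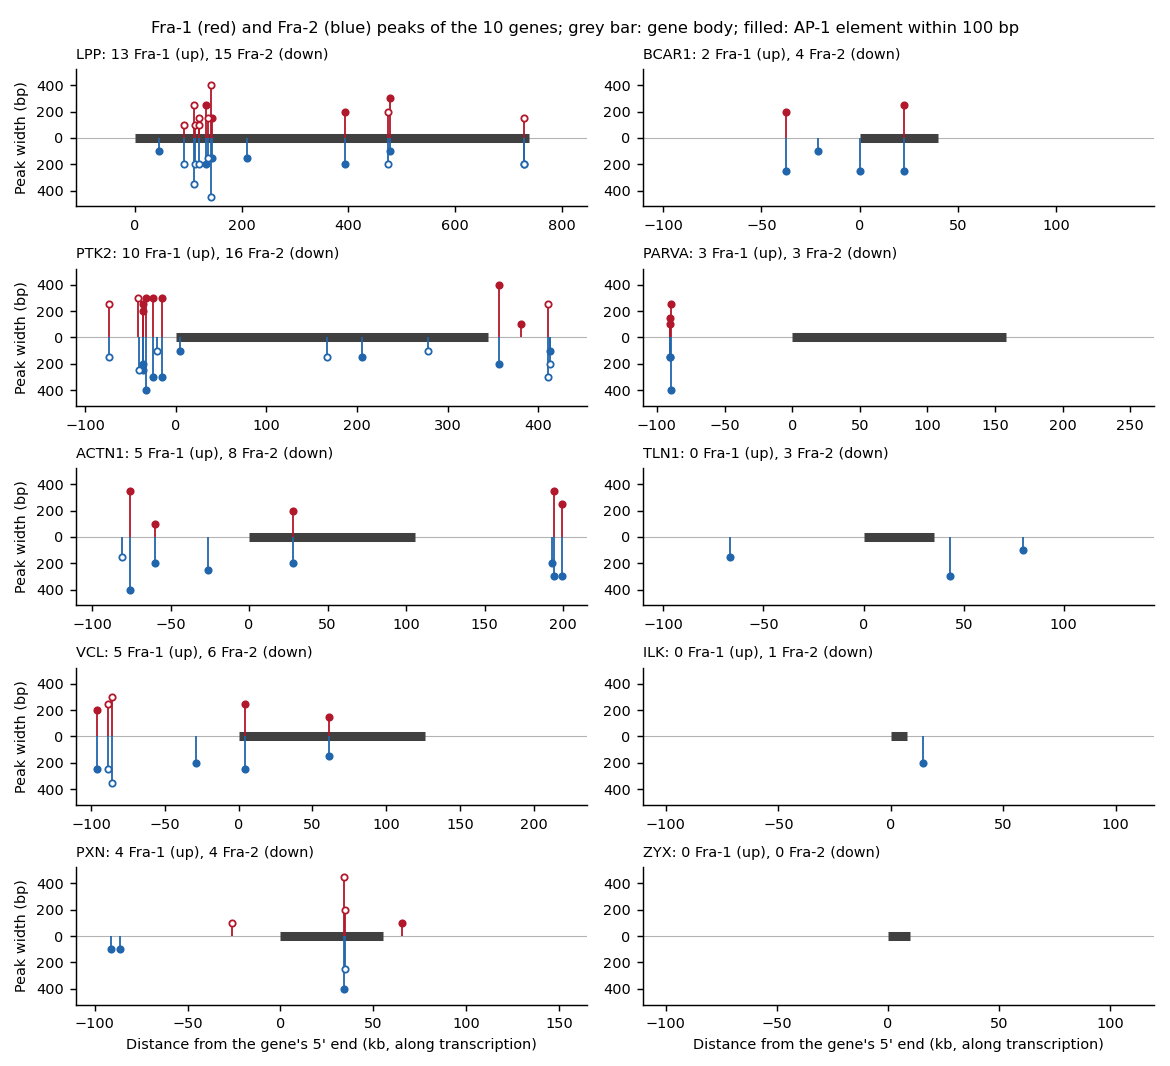
Peaks of each gene by distance from the 5′ end of the gene in kb, along the direction of transcription, with peak width in bp as height (Fra-1 up, Fra-2 down). The grey bar is the gene body, and filled circles mark peaks with the AP-1 element within 100 bp of the centre: most LPP peaks crowd more than 90 kb into the gene, PTK2 peaks crowd upstream of its start, and ZYX has none.

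Values near the limit of 100 kb show how far the counts depend on it. For ACTN1 the outermost Fra-1 peak inside was 98.9 kb from a TSS (250 bp wide), and the first one outside was 100.0 kb away after rounding (150 bp wide). For VCL they were 95.65 kb (200 bp) and 100.5 kb (200 bp) away. At the other genes with Fra-1 peaks outside the gene body the first one outside the limit was at least 127 kb away. Of the 42 Fra-1 peaks 15 were nearer to a TSS of another protein-coding gene, and so were 22 of the 60 Fra-2 peaks. In gene bodies alone lay 19 Fra-1 and 25 Fra-2 peaks, in 5 and 6 of the 10 genes, where 12.6% and 17.6% of all protein-coding genes had a peak in the gene body. These shares were not adjusted for gene length. The gene bodies of LPP and PTK2 span 737 and 344 kb. The median searched sequence was 273 kb for the 10 genes and 210.7 kb for all protein-coding genes.

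Most Fra-1 peaks of the 10 genes were also Fra-2 peaks. At least 1 bp was shared by 38 of the 42 Fra-1 peaks (90.5%, 77.4 to 97.3) and 38 of the 60 Fra-2 peaks (63.3%, 49.9 to 75.4), where the shares of the whole lists were 80.4% and 61.6%. Both intervals take in the share of the whole list. The centres of the 38 pairs lay a median of 25 bp and at most 75 bp apart, and 11 pairs had the same start and end. The Fra-2 peak was the wider in 17 pairs, the Fra-1 peak in 7, and 14 pairs were equally wide.

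The 4 Fra-1 peaks without a partner, at PTK2, LPP and PXN, were all 100 bp wide. The 22 Fra-2 peaks without a partner were 100 to 300 bp wide with a median of 150 bp, against 250 bp for the 38 shared ones. Unshared peaks were narrower over the whole lists too, with medians of 100 against 150 bp (Fra-1) and 150 against 200 bp (Fra-2). Over the genes the median width was 225 bp in the Fra-1 list and 200 bp in the other, where both whole lists had 150 bp. Peaks at least 200 bp wide made up 66.7% (50.5 to 80.4) of the Fra-1 and 65.0% (51.6 to 76.9) of the Fra-2 peaks of these genes, and 43.3% and 45.7% of the lists. Width is the only measure of size that the lists hold.

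**Figure D3:**
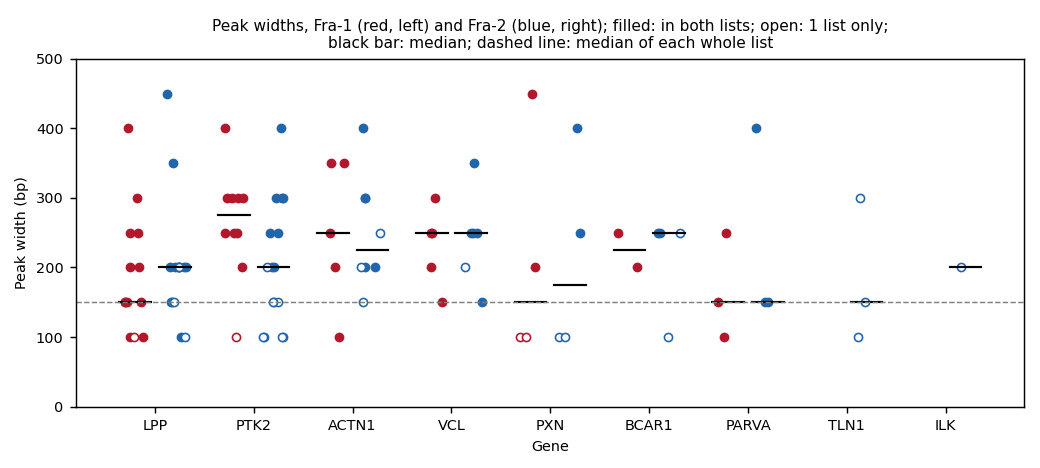
Width in bp of each peak of the 9 genes with peaks, Fra-1 in red and Fra-2 in blue. Filled circles are peaks in both lists, open circles peaks of 1 list, black bars medians, and the dashed line the 150 bp median of each whole list: the 4 open Fra-1 circles all sit at 100 bp, and the tallest points, at 450 bp, belong to PXN and LPP.

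The AP-1 element stood within 100 bp of the centre of 25 of the 42 Fra-1 peaks (59.5%, 43.3 to 74.4) and 40 of the 60 Fra-2 peaks (66.7%, 53.3 to 78.3), close to the 57.8% and 68.4% of the lists. Genome windows of the same length held it in 3.07% of cases, and windows of the searched sequence outside peaks in 3.01%. Without LPP the shares were 72.4% (52.8 to 87.3) and 75.6% (60.5 to 87.1). Inside gene bodies they were 8 of 19 and 13 of 25, and outside them 17 of 23 and 27 of 35, a contrast in which LPP supplies 13 and 15 of the peaks inside. Among the Fra-2 peaks without a Fra-1 partner 16 of 22 held the element (72.7%, 49.8 to 89.3), against 24 of 38 shared ones (63.2%, 46.0 to 78.2), and the intervals overlap. The whole Fra-2 list had it in 77.4% of unshared and 62.6% of shared peaks. Counted inside the called peaks alone, the order at these genes turned, with 13 of 22 unshared (59.1%, 36.4 to 79.3) and 24 of 38 shared peaks (63.2%), where the list had 71.6% and 62.7%. The median distance from centre to the nearest copy was 31 bp in the 25 Fra-1 peaks that held one and 21 bp in the 40 Fra-2 peaks, where the lists had 21 and 20 bp. It was at most 50 bp in 72.0% and 82.5% of them, against 86.0% and 87.7% in the lists.

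**Figure D4:**
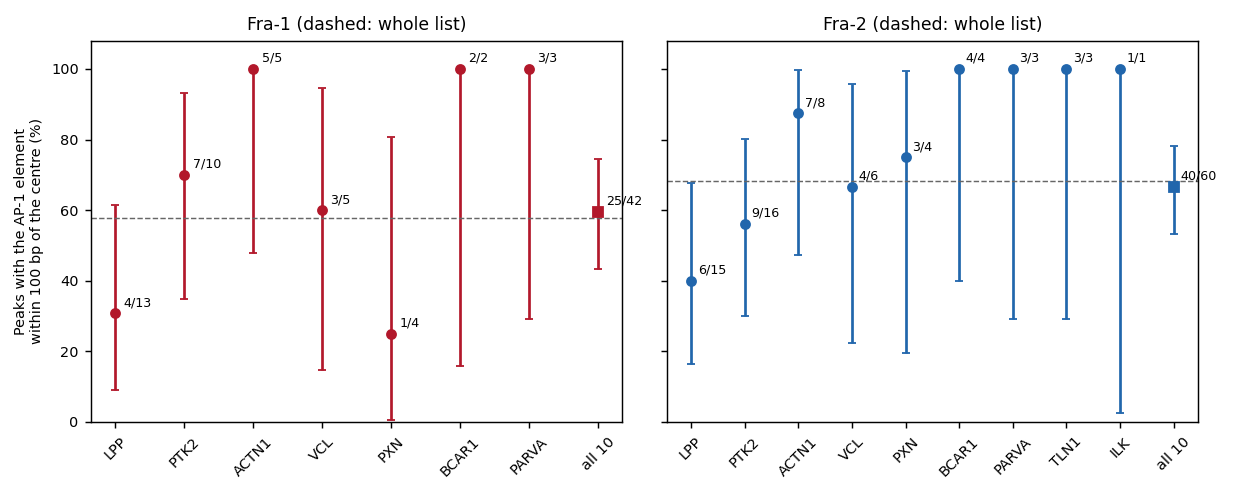
Percentage of peaks with the AP-1 element within 100 bp of the centre, for each gene with peaks and for all 10 together (square), with the count beside each point and 95% exact binomial intervals as bars. The dashed lines are the 57.8% of the Fra-1 and 68.4% of the Fra-2 list: LPP lies below in both panels at 4 of 13 and 6 of 15, PXN below in the Fra-1 panel at 1 of 4 and PTK2 and VCL in the Fra-2 panel at 9 of 16 and 4 of 6. All peaks of BCAR1 and PARVA are counted as holding it in both panels. So are all peaks of ACTN1 in the Fra-1 panel and of TLN1 and ILK in the Fra-2 panel.

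Seen from the element, most copies near these genes lay outside peaks. The searched sequence of the 10 genes held 585 copies, of which the Fra-1 list covered 31 (5.30%) and the Fra-2 list 43 (7.35%), where 1.57% and 2.29% of 456218 copies in the genome did. These shares follow from the number of peaks that the genes were picked for, and are a description. ACTN1 had the highest, with 7 and 9 of 53 copies in peaks, and PTK2 had 8 and 10 of 89. LPP had 155 copies, the most of the 10 genes, and 6 and 7 of them lay in peaks. The 45 distinct copies in peaks had an A before and a T after the element in 4 cases (8.89%, 2.48 to 21.2), against 5.97% of the copies in the genome.

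For other elements the intervals took in the values of the lists. They are wide, so they do not show that the frequencies are equal. The TEAD consensus stood in 8 of the 42 Fra-1 peaks (19.0%, 8.60 to 34.1) and 10 of the 60 Fra-2 peaks (16.7%, 8.29 to 28.5), against 15.8% and 13.0% of the lists and 5.18% of genome windows. LPP held 5 of those Fra-1 and 5 of those Fra-2 peaks. TGTGGT or TGCGGT, bound by RUNX factors, stood in 8 Fra-1 (19.0%, 8.60 to 34.1) and 12 Fra-2 peaks (20%, 10.8 to 32.3). The lists had 20.9% and 20%, and genome windows 15.3%. TGAATCA or TGATTCA stood in 8 Fra-1 (19.0%, 8.60 to 34.1) and 7 Fra-2 peaks (11.7%, 4.82 to 22.6). The lists had 17.7% and 16.6%, and genome windows 3.33%. All were sought on both strands, and a match is no proof of a bound site.

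Other focal adhesion genes were taken from a list of 43 further components, compiled from general knowledge of the structure. Earlier results of these data were known when the list was made, so its values are a description. A Fra-1 peak belonged to 32 of the 43 (74.4%) and a Fra-2 peak to 35 (81.4%), against 45.3% and 58.6% of all protein-coding genes. Their medians were 2 and 3 peaks. The 43 genes also had more searched sequence, with a median of 291 kb against 210.7 kb over all protein-coding genes. Per 100 kb of it their medians were 0.647 Fra-1 and 0.983 Fra-2 peaks, against 0 and 0.433. TLN2, the paralogue of TLN1, had most, with 9 Fra-1 and 12 Fra-2 peaks, 6 and 7 of them in the gene. TNS4, a tensin gene, had 6 and 9, and 6 genes tied at 5 Fra-1 peaks. Of these KANK2 and NEDD9, a paralogue of BCAR1, had the most Fra-2 peaks, 8 each. No peak in either list belonged to 6 of the 43: ARHGEF7, CRKL, FERMT1, PARVG, TGFB1I1 and TNS1. TRIP6, a close relative of LPP and ZYX, had 0 Fra-1 and 2 Fra-2 peaks, and PTK2B, the paralogue of PTK2, had 0 and 1. These last 2 genes were singled out after their values were seen.

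The protein-coding genes most like LPP in the 2 peak numbers were PRKCA with 12 Fra-1 and 15 Fra-2 peaks, ME3 with 13 and 16, and RUNX1 with 12 and 15. Each differed from LPP by 1 peak in all. PRKCA encodes a protein kinase C, ME3 a mitochondrial malic enzyme and RUNX1 a transcription factor. All 12 Fra-1 peaks of RUNX1 lay in its gene body, like those of LPP, as did 10 of 12 at PRKCA and 6 of 13 at ME3. Their searched sequence was 1375 kb at RUNX1, 608 kb at PRKCA and 375 kb at ME3, against 837 kb at LPP. At LPP no sequence past the 3′ end was searched, so these shares are not on equal terms.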

How the data were processed

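The peak positions of both antibodies were used as deposited by the authors, 1 list each, with starts and ends on a grid of 50 bp and no score, so the width was the only measure of size. Bowtie2 and hg19 are named, per the submitters' processing notes. How peaks were called, at which threshold, with or without input, and how replicates were joined is not given in the sources used here.

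With Python 3.11.15, pandas 2.3.3, scipy 1.17.1 and pysam 0.24.0, peaks were assigned to genes of GENCODE 44 lifted to GRCh37 (the assembly behind hg19), using every annotated TSS. Introns are numbered on the canonical transcript. Shared peaks have at least 1 bp in common. Both strands were searched for motifs, up to 100 bp from the centre. Intervals are 95% exact binomial (Clopper-Pearson), take in counting error alone and assume that adjacent peaks are independent. The scripts were tested on simulated data.

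The 10 genes, the list of 43 others and the alternatives were chosen with earlier results of these data known. Named were all 10 genes, the 4 of the 43 with most Fra-1 peaks (ties by Fra-2 peaks, a choice made after the values were seen), those of the 43 with no peak, and the 3 genes nearest to LPP in peak numbers. TRIP6 and PTK2B were added after their values were seen. Sequences were a few peaks with and without elements.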

Additional observations from a re-analysis of the deposited data

How the results depend on the processing

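The number of peaks depended on how far a gene was taken to reach. With the gene body or 10 kb around a TSS 19 Fra-1 and 27 Fra-2 peaks belonged to the 10 genes, with the gene body alone 19 and 25, and with peaks whose nearest protein-coding TSS was theirs 27 and 38, against 42 and 60. Peaks at least 200 bp wide numbered 28 and 39, with 6 and 10 at LPP and 9 and 9 at PTK2. The order of these 2 genes thus turned in both lists. Within 10 kb PTK2 had 0 Fra-1 and 4 Fra-2 peaks and PARVA 0 of both, and merging peaks within 500 bp left PARVA with 1 of each. With the gene body or 100 kb around the 5′ end alone, the 10 genes had 37 and 53 peaks. PTK2 then had 7 and 12, and ACTN1 3 and 5. The share of shared peaks stayed within its interval under every alternative tried, from 88.1% to 96.3% for Fra-1 and from 61.7% to 72.0% for Fra-2. The share with the AP-1 element was 38.1% for Fra-1 and 50% for Fra-2 within 50 bp of the centre. A narrower window lowers the share of the whole lists too, which was not counted for 50 bp. Of list peaks with the element, 86.0% (Fra-1) and 87.7% (Fra-2) had the middle of a copy at most 50 bp from the centre, against 72.0% and 82.5% here. That measure differs from the 38.1% and 50%, which needed the whole element within 50 bp and counted all peaks. In gene bodies alone, where LPP supplies most peaks, the share with the AP-1 element was 42.1% and 52.0%. The settings without LPP and with nearest TSS for these shares were chosen after seeing the data. Copy number of the loci in this line, the part of the input and the spread between replicates were not tested.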
